A study of Mus musculus with 6 samples.

Results

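The antioxidant and redox defence genes examined here are 35 mouse genes of glutathione synthesis, peroxide removal, thioredoxin cycling, superoxide dismutation, metal binding and iron storage, with their main regulator NRF2. They were chosen by gene symbol. Every probe set whose only symbol in the platform's gene table was one of the 35 was taken. That gave 35 probe sets for 28 of the 35 genes, out of 12488 probe sets on the array. No probe set with a single symbol was found for the other 7. Prdx1 and Ftl1 were represented only by probe sets that also carry the symbol of a pseudogene or a predicted gene, and Prdx5, Prdx6, Nqo2, Msra and Selenop are not analysed here. Of the 28 genes, 27 had at least 1 probe set bright enough to be tested. The remaining gene, Keap1, lay too close to background. The value throughout is the linear array intensity of a probe set. A probe set was tested when it exceeded a floor of 68.9, the 30th percentile of all values, on at least 3 of the 6 arrays. Differences are high-fat minus low-fat means of log2 intensity, fitted with limma, and adjusted p-values cover all 8950 tested probe sets.

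Liver RNA came from C57BL/6 mice, a standard inbred laboratory strain. The 3 high-fat arrays are from mice kept for 12 weeks on a Western-style diet rich in fat, and the 3 low-fat arrays from mice kept for the same time on a diet low in fat. No allele, transgene, sex or age is given for any array, and although the keywords of the labels mention LDL receptor deficiency, no array is labelled as deficient. Whether an array holds 1 mouse or a pool is not stated, so the p-values measure the spread between these arrays. Hepatocyte markers were bright throughout: 7 of the 8 listed were measured, and their summed intensity ran from 144472 to 185640.5 on the high-fat arrays and 151066 to 190067 on the low-fat arrays. Of these 7, 4 had a log2 difference above 0 and 3 below, and 0 passed an adjusted p of 0.05. Tat alone did not overlap between the diets, at 13797, 9815 and 10582 on the high-fat arrays, against 18010, 19400 and 21258 on the low-fat arrays. Its log2 difference was -0.79, with an adjusted p of 0.0742 in limma. In all, 60 of 6557 tested genes passed an adjusted p of 0.05 between the diets, or 0.915%.

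Cells keep reactive oxygen in check in layers. Superoxide dismutases turn superoxide into hydrogen peroxide, and glutathione peroxidases and peroxiredoxins reduce the peroxide, drawing electrons from glutathione or thioredoxin and, in the end, from NADPH. The transcription factor NRF2, encoded by Nfe2l2, is held for degradation by KEAP1 and, when released, binds antioxidant response elements of many of these genes together with small MAF proteins. Metallothioneins bind zinc and copper, and their genes answer to metals through metal response elements as well as to glucocorticoids and inflammation. The liver makes much of the body's glutathione and stores iron in ferritin.

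Promoter sequence is shown for 3 members. Both metallothionein genes are shown because, at 1 probe set per gene, they varied most between the high-fat arrays. Srxn1 is shown because it held the smallest p-value of all the member probe sets. The windows run from 250 bases before to 50 after a transcript start, 5′ to 3′, from RefSeq's annotation of GRCm38.p6, and position 0 is that start. For Mt2 and Srxn1 it is also the start of the gene in RefSeq's gene table, whereas for Mt1 it lies 206 bases downstream of the gene's start there. Capitals in the metallothionein windows mark the metal response core TGCACNC or TGCGCNC on either strand. Capitals in the Srxn1 window mark TGACTCAGC or TGAGTCAGC, the core bound by NRF2 with small MAF, on either strand.
Mt1, chr8:94178839-94179138, plus strand: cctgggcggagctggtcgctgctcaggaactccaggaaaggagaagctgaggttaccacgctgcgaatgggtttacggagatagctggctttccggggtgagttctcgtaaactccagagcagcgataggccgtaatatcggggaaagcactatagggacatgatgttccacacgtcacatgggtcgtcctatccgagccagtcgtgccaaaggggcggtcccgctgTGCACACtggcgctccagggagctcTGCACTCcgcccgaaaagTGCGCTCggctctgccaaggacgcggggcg
Mt2, chr8:94172368-94172667, plus strand: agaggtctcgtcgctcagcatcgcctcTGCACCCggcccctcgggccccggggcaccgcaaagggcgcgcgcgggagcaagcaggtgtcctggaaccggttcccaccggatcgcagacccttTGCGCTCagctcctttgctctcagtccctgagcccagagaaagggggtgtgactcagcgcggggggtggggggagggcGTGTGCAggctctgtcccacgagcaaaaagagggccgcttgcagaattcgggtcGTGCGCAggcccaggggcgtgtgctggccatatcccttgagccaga
Srxn1, chr2:152105274-152105573, plus strand: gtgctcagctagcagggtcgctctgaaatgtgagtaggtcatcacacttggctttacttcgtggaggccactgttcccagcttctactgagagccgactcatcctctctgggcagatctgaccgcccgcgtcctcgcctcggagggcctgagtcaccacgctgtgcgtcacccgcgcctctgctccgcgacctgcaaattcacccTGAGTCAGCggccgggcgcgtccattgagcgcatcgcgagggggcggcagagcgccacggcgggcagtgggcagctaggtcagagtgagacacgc
The Mt1 window held 3 metal response cores and the Mt2 window 4. Such a core was in 25.7% of all 32851 promoter windows of this length, and in 7 of the 42 member windows, or 16.7%. These windows belonged to 6 of the 29 member genes with a window: Gclm, Prdx4, Srxn1, Glrx, Mt1 and Mt2. The Srxn1 match began at position -45. TGACTCAGC or TGAGTCAGC stood in 0.822% of all windows and in 3 of the 42 member windows, or 7.14%, those of Srxn1, Mt2 and Prdx1. This motif was added after the windows had been read. The broader antioxidant response core TGACNNNGC includes TGACTCAGC and shares its place with it in Mt2 and Prdx1. This broader core stood in 12.4% of all windows and in 8 of the 42 member windows, or 19.05%. They belonged to 8 member genes: Gclm, Prdx1, Srxn1, Txnrd1, Sod1, Mt2, Nfe2l2 and Mgst1. Every match is a description of the letters, not a site of binding.

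None of the redox defence genes separated the diets past the threshold: 0 of the 27 tested genes passed an adjusted p of 0.05 in limma, where 0.915% of all tested genes did. At an unadjusted p under 0.05 there were 3 of 27, Gclc, Mgst3 and Prdx4, which is 11.1% against 9.5% of all genes. The median log2 difference of the 27, high-fat minus low-fat diet, was 0.071, beside 0.0077 over all tested genes, and 17 of 27 lay above 0 against 51.3% of all genes. Differences ran from -0.64 for Mt1 to 0.57 for Gclc.

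The size of change that these arrays leave room for differed from gene to gene. The 95% interval of the difference, taken gene by gene from the limma fit, lay within a 1.5-fold change either way for 16 of the 27 genes, against 32.0% of all tested genes. It lay within a 2-fold change for 22 of the 27, against 77.4% of all genes. The median standard error of the difference was 0.156 for the 27 genes and 0.229 over all tested genes. These shares thus depend on the width of the intervals as well as on the differences. The 5 genes whose interval reached past 2-fold were Gclc, Mgst3, Nqo1, Mt1 and Mt2, and for Mt1 alone it reached past 3-fold. A p-value that misses the threshold does not show that a gene is equal on both diets.

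**Figure D1:**
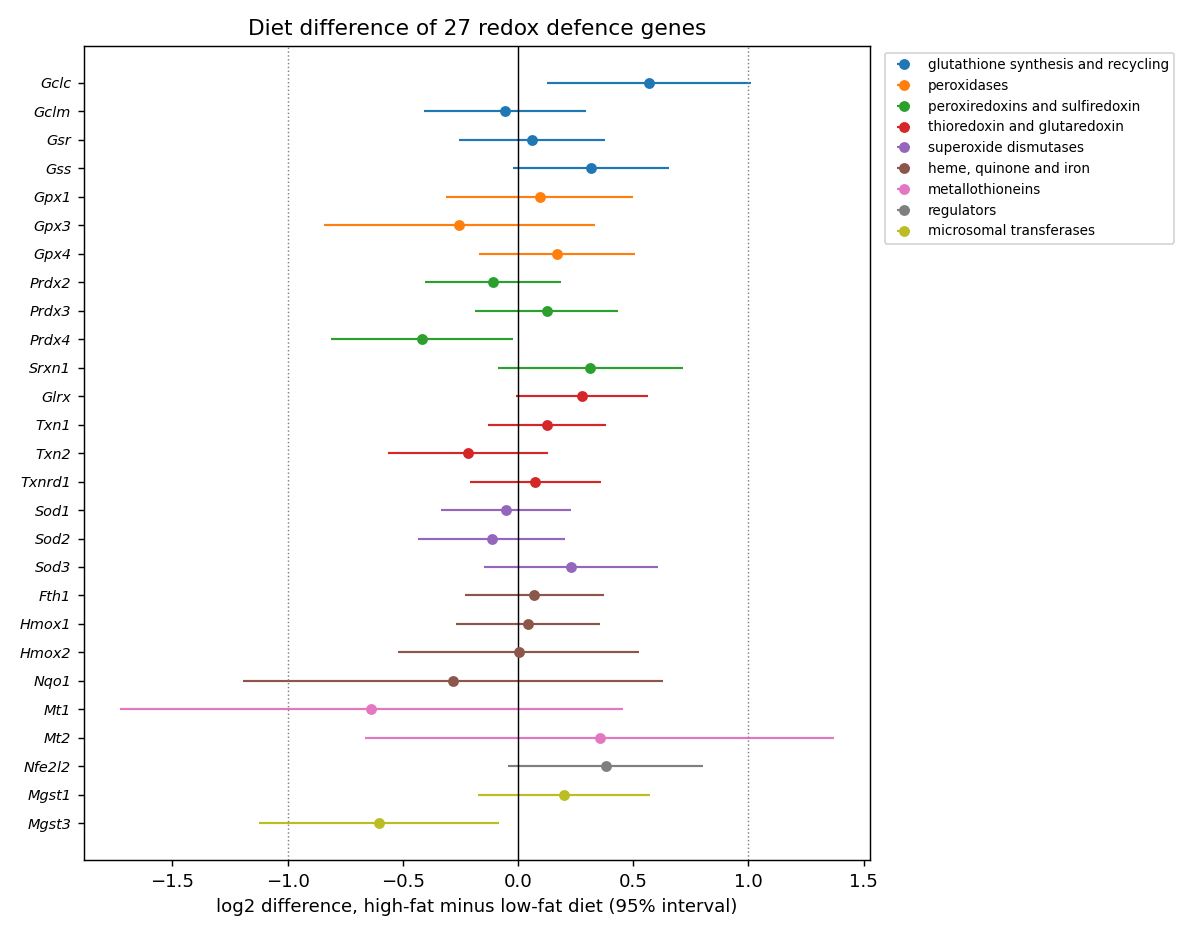
Log2 difference between the diets for the 27 tested redox defence genes (x axis, high-fat minus low-fat, 3 arrays each), grouped by role. Points are limma estimates, bars 95% intervals and dotted lines a 2-fold change. The intervals of Gclc, Mgst3 and Prdx4 do not reach 0, and those of Mt1, Mt2 and Nqo1 are the widest.

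**Figure D2:**
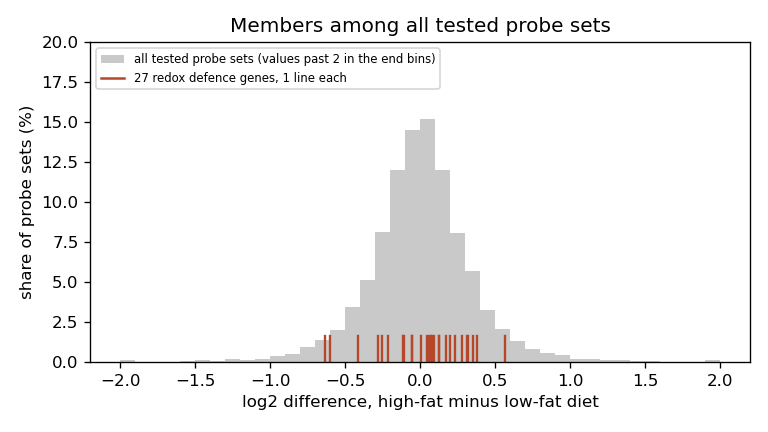
Histogram of the log2 difference, high-fat minus low-fat diet, over all 8950 tested probe sets (grey, y axis in percent), with 1 line for each of the 27 redox defence genes. All 27 lines lie between -0.64 and 0.57, in the central part of the distribution.

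Glutathione is built in 2 steps, and none of its tested genes passed the threshold. Gclc, the catalytic subunit of glutamate-cysteine ligase and the rate-limiting step, had intensities of 3856, 2788 and 3850.3 on high-fat arrays 1, 2 and 3, against 1769, 2670.4 and 2692 on low-fat arrays 1, 2 and 3. All 3 high-fat arrays lay above all 3 low-fat arrays, but high-fat array 2 exceeded the nearest low-fat array by little, and low-fat array 1 stood well below the rest. Its mean was 3498 ± 615 (SD) on the high-fat arrays, against 2377 ± 527 (SD) on the low-fat arrays (n = 3 each), a log2 difference of 0.57 ± 0.20 (SE), with an adjusted p of 0.391 in limma. Without low-fat array 1 the difference was 0.37.

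Gclm, the modifier subunit of the same ligase, averaged 2366 ± 480.3 (SD) on the high-fat arrays, against 2435 ± 210.3 (SD) on the low-fat arrays (n = 3 each), a log2 difference of -0.057 with a 95% interval of -0.41 to 0.29. Whether the differences of the paired subunits are unequal was not tested. Gss, glutathione synthetase, carries out the second step, and its probe set read 1316, 1604 and 1861 on the high-fat arrays, against 1191, 1253 and 1360.0 on the low-fat arrays. Only high-fat array 1 fell inside the low-fat range, and the log2 difference was 0.32 ± 0.15 (SE) (adjusted p = 0.589). A dimmer Gss probe set, marked as chosen under relaxed probe rules, pointed the other way at 312, 339 and 272 on the high-fat arrays, against 336, 546 and 434 on the low-fat arrays, a log2 difference of -0.49. Gsr, the reductase that returns oxidised glutathione to its reduced form, averaged 973 ± 133 (SD) on the high-fat arrays, against 927 ± 15 (SD) on the low-fat arrays (n = 3 each), and its interval ran from -0.25 to 0.38.

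The glutathione peroxidases overlapped between the diets. Gpx4, which reduces lipid hydroperoxides in membranes, read 1572, 1655 and 1494 on the high-fat arrays, against 1413, 1666 and 1158 on the low-fat arrays, with the lowest value on low-fat array 3. Its log2 difference was 0.17 ± 0.15 (SE) (adjusted p = 0.834). Dropping low-fat array 3 gave 0.035, and dropping low-fat array 2 gave 0.30. Gpx1, the cytosolic enzyme, read 821, 1254 and 832 on the high-fat arrays, against 896, 853 and 919 on the low-fat arrays. High-fat array 2 was above all others, and the other 2 high-fat arrays were below every low-fat array. Without that array the log2 difference of Gpx1 was -0.11, against 0.095 with it. Gpx3, the secreted plasma form, averaged 262 ± 58.8 (SD) on the high-fat arrays, against 311 ± 57.1 (SD) on the low-fat arrays (n = 3 each), a log2 difference of -0.25.

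Peroxiredoxins are abundant thiol peroxidases, and each of those measured works in a different compartment. Prdx4, the form of the endoplasmic reticulum, read 1581, 1145 and 1046 on high-fat arrays 1, 2 and 3, against 1447, 1842 and 1687 on low-fat arrays 1, 2 and 3. High-fat arrays 2 and 3 lay below every low-fat array, while high-fat array 1 lay among them. The log2 difference of Prdx4 was -0.42 ± 0.17 (SE), with an adjusted p of 0.521, and without high-fat array 1 it was -0.59. The mitochondrial Prdx3 averaged 3551 ± 482 (SD) on the high-fat arrays, against 3247 ± 297 (SD) on the low-fat arrays (n = 3 each), a log2 difference of 0.12. The cytosolic Prdx2, also a major protein of red blood cells, had 2 tested probe sets of opposite sign. The brighter gave 3701, 3529 and 3051 on the high-fat arrays, against 3633, 4135 and 3324 on the low-fat arrays, with high-fat arrays inside or below the low-fat range. The dimmer gave 485, 476 and 438 on the high-fat arrays, against 500.1, 459 and 356 on the low-fat arrays. Their log2 differences were -0.11 and 0.10, and the diets overlapped in both. A further Prdx2 probe set lay below the floor on all 6 arrays.

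Srxn1 encodes sulfiredoxin, which repairs peroxiredoxins that have been over-oxidised, and is a well-known NRF2 target whose promoter is printed above. Its dimmer probe set read 312, 386 and 474 on the high-fat arrays, against 239.5, 218 and 228 on the low-fat arrays. Every high-fat array lay above every low-fat array, and the low-fat arrays were close together. The log2 difference of this probe set was 0.75 ± 0.22 (SE), with an unadjusted p of 0.00848 and an adjusted p of 0.294 in limma, the smallest of the 32 tested member probe sets. The brighter Srxn1 probe set, which stands for the gene in the counts and is marked as holding an incomplete set of probes, read 1228, 1186 and 921 on the high-fat arrays, against 729.9, 910.2 and 1050.4 on the low-fat arrays. High-fat array 3 fell inside its low-fat range, and the log2 difference was 0.31 ± 0.18 (SE) (adjusted p = 0.688). Within the high-fat diet the 2 probe sets ordered the arrays in opposite ways, with array 3 highest in the dimmer and lowest in the brighter.

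**Figure D3:**
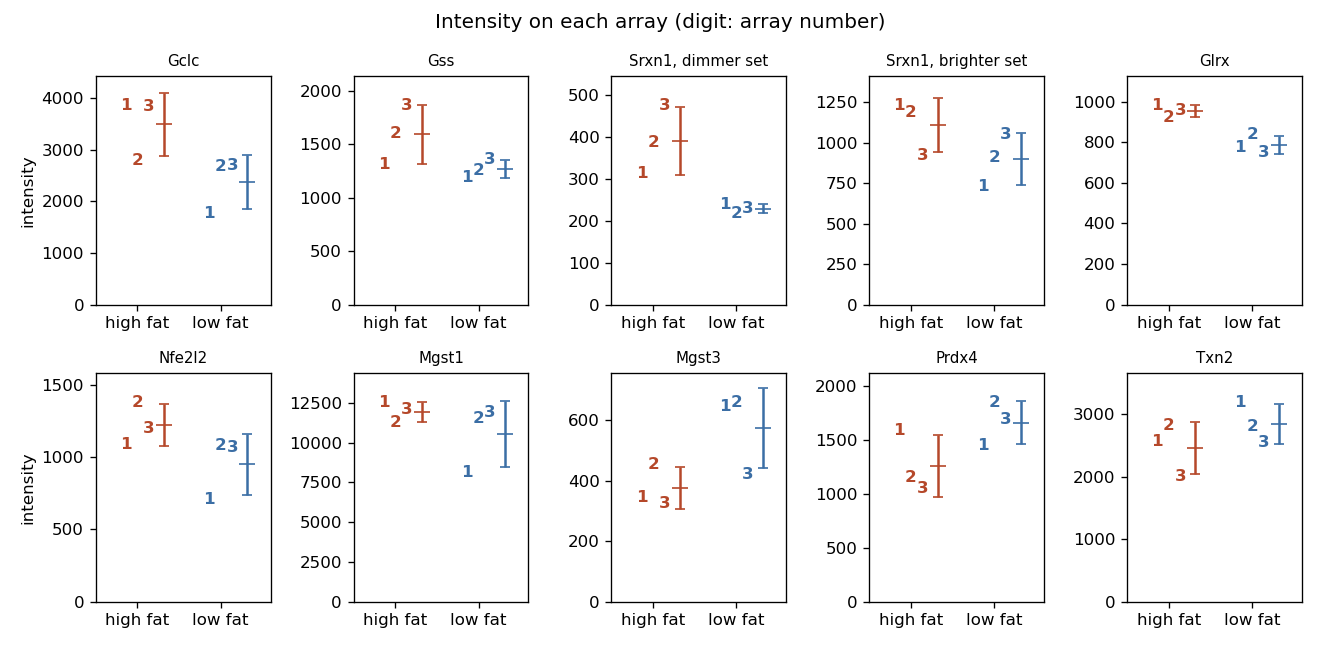
Intensity on each array for 9 redox defence genes, with both Srxn1 probe sets (y axes from 0, digits are array numbers, bars are mean and SD of 3 arrays). The high-fat arrays lie wholly above the low-fat arrays for Gclc, the dimmer Srxn1 set, Glrx and Nfe2l2, and overlap them for the others; low-fat array 1 is lowest for Gclc, Gss, Nfe2l2, Mgst1 and the brighter Srxn1 set.

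The thioredoxin branch included a member with closely grouped arrays. Glrx, glutaredoxin, removes glutathione from protein thiols, and its intensities were 981, 921 and 957 on high-fat arrays 1, 2 and 3, against 773, 838 and 750.1 on low-fat arrays 1, 2 and 3. The diets did not overlap, yet the log2 difference was only 0.28 ± 0.13 (SE), with an adjusted p of 0.577 and a 95% interval of -0.0093 to 0.56. Txn2, mitochondrial thioredoxin, leaned the other way at 2565, 2822 and 2009 on the high-fat arrays, against 3187, 2804 and 2556 on the low-fat arrays, with overlap and a log2 difference of -0.22 ± 0.15 (SE) (adjusted p = 0.774). Without high-fat array 3 the difference of Txn2 was -0.076, and without low-fat array 1 it was -0.13. Txnrd1, the cytosolic selenoenzyme that reduces thioredoxin, read 1327, 1213 and 1400.5 on the high-fat arrays, against 1132, 1340.4 and 1268 on the low-fat arrays (log2 difference 0.076). Cytosolic Txn1 averaged 6822 ± 229 (SD) on the high-fat arrays, against 6262 ± 418 (SD) on the low-fat arrays (n = 3 each), with a 95% interval of -0.13 to 0.38 on the log2 scale.

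Superoxide dismutases showed small differences. Sod1, the copper and zinc enzyme of the cytosol, read 10929, 12630.3 and 10876 on the high-fat arrays, against 12278, 11961 and 11419 on the low-fat arrays, a log2 difference of -0.053 with a 95% interval of -0.34 to 0.23. Sod3, the extracellular form, read 1131, 1438 and 1300.1 on the high-fat arrays, against 1309.9, 1117 and 895 on the low-fat arrays, with overlap, and its log2 difference was 0.23 ± 0.17 (SE) (adjusted p = 0.784). Leaving out low-fat array 3 gave 0.085 for Sod3, and leaving out low-fat array 1 gave 0.36. The mitochondrial manganese enzyme, encoded by Sod2, averaged 914 ± 108 (SD) on the high-fat arrays, against 987 ± 79.6 (SD) on the low-fat arrays (n = 3 each), a log2 difference of -0.11.

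Heme, quinone and iron genes gave a similar picture. Hmox1, the inducible heme oxygenase and a common readout of oxidative stress, read 1187, 1044 and 1205 on the high-fat arrays, against 1095, 987 and 1258 on the low-fat arrays. The highest and the lowest of these 6 values were both on low-fat arrays, and the log2 difference was 0.045, with a 95% interval of -0.27 to 0.36. Hmox2, the constitutive form, averaged 176 ± 12.2 (SD) on the high-fat arrays, against 176 ± 12.4 (SD) on the low-fat arrays (n = 3 each), a log2 difference of 0.0036 whose sign turned under quantile or common-median scaling. Fth1, the ferritin heavy chain, had a bright probe set at 15078, 14683 and 13469 on the high-fat arrays, against 14347, 14616 and 12274 on the low-fat arrays, a log2 difference of 0.071. A second Fth1 probe set, chosen under relaxed probe rules, read 4965, 4033 and 4902 on the high-fat arrays, against 5157, 5149 and 5295 on the low-fat arrays. Its high-fat arrays lay below all low-fat arrays, with a log2 difference of -0.17 ± 0.12 (SE) and an adjusted p of 0.774. The probe sets of Fth1 thus had opposite signs. Nqo1, a quinone reductase and standard NRF2 target, was dim, at 67.8, 114 and 157 on the high-fat arrays, against 89.5, 117 and 211 on the low-fat arrays, with high-fat array 1 under the floor of 68.9. Its 2 probe sets gave log2 differences of -0.28 and 0.20, and in both the lowest value was on high-fat array 1. The brighter is marked as shared within a gene family and the dimmer as chosen under relaxed probe rules. The dimmer set exceeded the floor on only 2 high-fat arrays and 1 low-fat array. With the floor at the 10th percentile its difference was -0.058.

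The metallothioneins Mt1 and Mt2 are neighbours on chromosome 8. At 1 probe set per gene, they had the largest coefficients of variation on the high-fat diet among the 27 tested members, 65.3% and 55.1%. On the low-fat diet these were 13.9% and 51.9%. Mt1 read 311, 1012 and 1564 on high-fat arrays 1, 2 and 3, against 1300.4, 1367 and 1042 on low-fat arrays 1, 2 and 3. High-fat array 1 stood far below the other 5 arrays, and the highest value was on high-fat array 3. The highest high-fat value was 5.03 times the lowest, against 1.31 times on the low-fat diet. Mt2 read 596, 1294 and 2039 on the high-fat arrays, against 1575, 642 and 742 on the low-fat arrays. On the high-fat diet both genes put the arrays in the same order, array 1 lowest and array 3 highest, whereas on the low-fat diet Mt2 was high on array 1 alone while Mt1 was not. The log2 difference was -0.64 ± 0.48 (SE) for Mt1 and 0.36 ± 0.45 (SE) for Mt2, with adjusted p-values of 0.794 and 0.9. The signs rested on single arrays. Without high-fat array 1 the difference of Mt1 was 0.035, and without high-fat array 3 that of Mt2 was -0.050. Acute phase genes of hepatocytes share inflammatory inputs with metallothioneins. Their summed intensities were 101153 to 125075 on the high-fat arrays and 88379 to 100519 on the low-fat arrays, highest on high-fat array 3. The sums did not overlap, but the lowest high-fat sum lay just above the highest low-fat sum. The sum was 101153 on high-fat array 1 and 101170 on high-fat array 2, and Hp and Hpx held its largest parts. Single genes ordered the high-fat arrays differently. Apcs, Hp, Orm2, Saa2 and Saa3 were lowest on array 1 and highest on array 3, as Mt1 and Mt2 were. Fga, Fgb, Fgg, Hpx, Itih3, Itih4 and Orm1 were lowest on array 2, and Lcn2 was highest there. Of 13 tested acute phase genes 9 lay above 0 and 4 below, and 0 were called. For 3 of the 13 the diets did not overlap, where 14.5% of all genes did not. Their part in the metallothionein values was not tested.

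**Figure D4:**
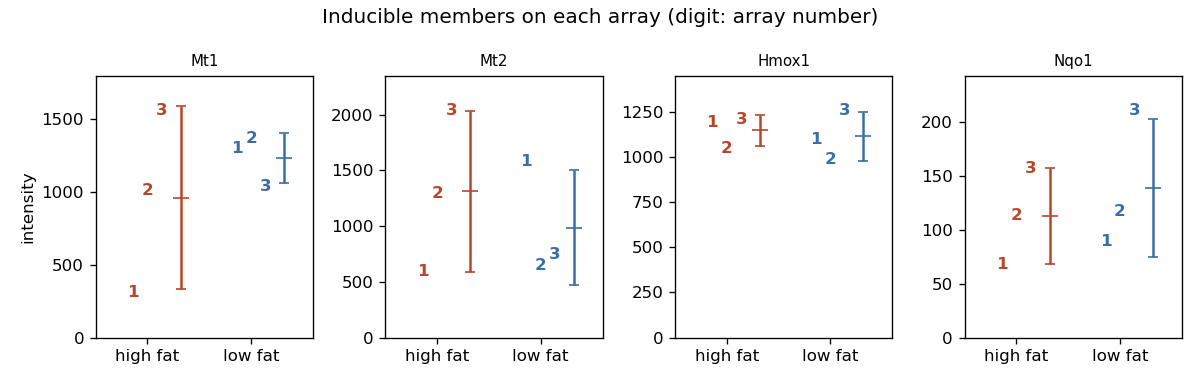
Intensity of Mt1, Mt2, Hmox1 and Nqo1 on each array (y axes from 0, digits are array numbers, bars are mean and SD of 3 arrays). The diets overlap for all 4 genes, and high-fat array 1 is the lowest array for Mt1, Mt2 and Nqo1.

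Nfe2l2, which encodes NRF2, read 1087, 1375 and 1199.5 on high-fat arrays 1, 2 and 3, against 706, 1077 and 1069 on low-fat arrays 1, 2 and 3. The lowest high-fat array lay just above the highest low-fat array, and low-fat array 1 stood apart below the others. The log2 difference was 0.38 ± 0.19 (SE), with an adjusted p of 0.611, and it was 0.18 without low-fat array 1. Keap1, whose protein targets NRF2 for degradation, read 56.3, 129 and 79.9 on the high-fat arrays, against 55.4, 17.9 and 27.7 on the low-fat arrays. It exceeded the floor on 2 high-fat arrays and on 0 low-fat arrays, so it was not tested.

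The microsomal glutathione transferases are membrane enzymes that also reduce lipid hydroperoxides. Mgst3 read 346, 454 and 325 on the high-fat arrays, against 645, 658 and 421 on the low-fat arrays. High-fat array 2 lay above low-fat array 3, and the other 2 high-fat arrays lay below the low-fat range. Its log2 difference was -0.60 ± 0.23 (SE), with an adjusted p of 0.461, and a second Mgst3 probe set lay below the floor on all arrays. Mgst1 read 12520.5, 11274 and 12068 on the high-fat arrays, against 8156, 11556 and 11909 on the low-fat arrays. Here low-fat array 1 alone was low, the other 5 arrays lay close together, and the log2 difference of 0.20 became 0.026 without it.

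Across the 27 genes, 3 had arrays that did not overlap between the diets, Gclc, Glrx and Nfe2l2. All 3 were higher on the high-fat diet. That is 11.1% of the members, where 14.5% of all tested genes did not overlap in either direction and 7.82% did not overlap and were higher, so the count is near the background. Low-fat array 1 was the lowest of the 6 arrays for 8 of the 27 genes and the highest for 2. High-fat array 3 was the lowest for 7 and the highest for 5. The median deviation of the members from their own means ranged over the arrays from -0.056 to 0.062 on the log2 scale.

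**Figure D5:**
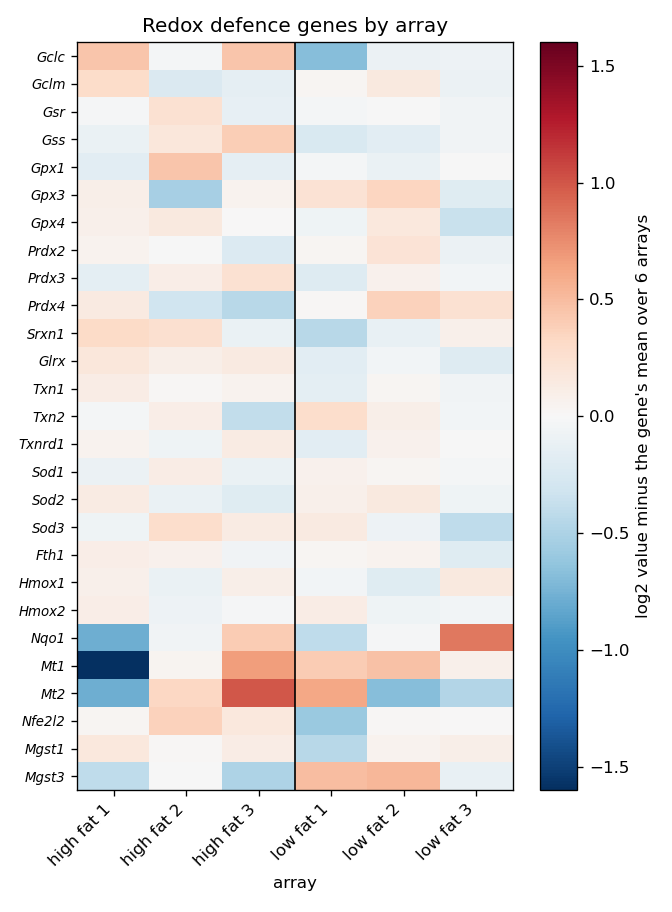
Log2 value of each of the 27 redox defence genes on each array, minus that gene's mean over the 6 arrays (colour), with the high-fat arrays to the left of the line. The deepest colours belong to Mt1, Mt2 and Nqo1, and low-fat array 1 is below the mean for Gclc, Nfe2l2, Srxn1 and Mgst1.

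Genes that feed, oppose or regulate this network were listed as well, and 90 of the 127 were tested. Past the threshold were 2 genes, 1 in each direction, beside 0.915% of all genes. At an unadjusted p under 0.05 there were 15, or 16.7% beside 9.5% of all genes. For 18, or 20% beside 14.5%, the diets had no overlapping arrays. The lists were chosen with earlier results of these data known, so these shares describe the lists and test nothing. The related genes had a median log2 difference of -0.049. The lower one was Txnip, whose protein binds and inhibits thioredoxin. It read 934, 667 and 689 on the high-fat arrays, against 2511, 1608 and 2183 on the low-fat arrays, with no overlap. Its mean was 763 ± 148 (SD) on the high-fat arrays, against 2101 ± 457 (SD) on the low-fat arrays (n = 3 each), and it fell by 1.45 ± 0.20 (SE) on the log2 scale, with an adjusted p of 0.0135 in limma. Leaving out 1 array ended the call of Txnip in 3 cases: high-fat 2, low-fat 1 and low-fat 3, where the adjusted p was 0.0763, 0.0736 and 0.0597. The probe set carries a suffix for probes shared between transcripts. Thioredoxin itself, Txn1, had a log2 difference of 0.13 as given above.

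The higher one was Slc1a4, a transporter of neutral amino acids. It read 439, 589.6 and 726 on the high-fat arrays, against 139.7, 55 and 189.7 on the low-fat arrays, the diets standing apart and with low-fat array 2 under the floor. It rose by 2.23 ± 0.38 (SE) on the log2 scale (adjusted p = 0.0334), a call that leaving out any array but low-fat array 3 undid, with adjusted p-values of 0.0588 to 0.176. In the list of glutathione turnover and amino acid supply, 14 of 20 genes were tested, and the next smallest p was that of Hagh, a glyoxalase, at a log2 difference of -0.29 ± 0.11 (SE) (adjusted p = 0.446). Among 29 of 40 other antioxidant enzymes, Txnrd3, a thioredoxin glutathione reductase, read 718, 1072 and 837 on the high-fat arrays, against 2099, 1287 and 1456 on the low-fat arrays, the diets standing apart, on a probe set chosen under relaxed probe rules. Its log2 difference was -0.87 ± 0.21 (SE) and its adjusted p 0.155.

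Of the transcription factors and other regulators, 14 of 19 were tested and 0 were called. At an unadjusted p under 0.05 there were 2. Bach1 encodes a repressor that competes with NRF2 for antioxidant response elements, and read 479.8, 535 and 366 on the high-fat arrays, against 1146, 903 and 543 on the low-fat arrays. All high-fat arrays lay below all low-fat arrays, with a log2 difference of -0.86 ± 0.27 (SE) and an adjusted p of 0.342. With the array's Gapdh 3′ to 5′ ratio, a measure of RNA integrity, added to the model, a choice made with the values in view, that adjusted p was 0.0456. Foxo3, a factor that can activate Sod2, had a log2 difference of -0.60 ± 0.19 (SE) without overlap (adjusted p = 0.357).

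Iron and metal genes were tested for 15 of 20 names and 0 were called, with 2 at an unadjusted p under 0.05. Hamp encodes hepcidin, the hormone that limits iron export, and read 3197, 2819 and 2608 on the high-fat arrays, against 4028, 8465 and 7591 on the low-fat arrays. All 3 high-fat values lay below the low-fat range, with a log2 difference of -1.15 ± 0.25 (SE) and an adjusted p of 0.0947. Leaving out 1 array moved this adjusted p both ways. It was 0.00951 without low-fat array 1 and 0.155 to 0.346 without any one of the others, and 0.515 with no filter on dim probe sets. Cp, the copper ferroxidase ceruloplasmin, read 11949, 10378 and 9942 on the high-fat arrays, against 8512, 8589 and 7106 on the low-fat arrays, a log2 difference of 0.42 ± 0.14 (SE) without overlap (adjusted p = 0.359). The iron store gene Fth1 gave 0.071 and -0.17 on its 2 probe sets, as above.

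NADPH supply was tested for 8 of 10 genes, of which 6 lay above 0 and 0 were called, with 0 at an unadjusted p under 0.05. Nnt, the mitochondrial transhydrogenase, had a log2 difference of 0.35 ± 0.18 (SE) and Pgd, of the pentose phosphate pathway, 0.28 ± 0.16 (SE), with adjusted p-values of 0.618 and 0.687. In the C57BL/6J substrain Nnt carries an internal deletion, and the labels do not name the substrain. For sources of reactive oxygen, 10 of 18 genes were tested and 0 called, with 2 at an unadjusted p under 0.05. Cyp4a10, a fatty acid hydroxylase, read 2229, 3209 and 1916 on the high-fat arrays, against 1363, 1609 and 1738 on the low-fat arrays. The diets did not overlap (log2 difference 0.62 ± 0.19 (SE), adjusted p = 0.32), on a probe set marked as shared within a gene family. Rac2, a subunit of the phagocyte NADPH oxidase, had a log2 difference of -0.53 ± 0.23 (SE) (adjusted p = 0.542).

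Markers of other cells were measured beside these genes. All 16 macrophage and Kupffer cell markers were measured, 14 of them above the floor on at least 3 arrays, and Fcer1g and Marco were the dim ones. The summed intensity of all 16 ran from 13465 to 16494 on the high-fat arrays and 10335 to 13115 on the low-fat arrays, without overlap. The lowest high-fat sum lay close above the highest low-fat sum. The largest difference was that of Mpeg1, at 1210, 1659 and 1892 on the high-fat arrays, against 960.5, 810.5 and 759 on the low-fat arrays. Of 14 tested markers 13 lay above 0, where 51.3% of all genes did. In limma 0 were called, and 4 had an unadjusted p under 0.05, or 28.6% against 9.5% of all genes. Of 8 stellate cell markers 7 were measured, with Des dim. They summed to 6669 to 8352 on the high-fat arrays and 6184 to 6584 on the low-fat arrays, also without overlap. Dcn held the largest part of these sums, at 4462 to 5501.5 on the high-fat arrays, against 4039 to 4058 on the low-fat arrays. Of 6 tested stellate markers 4 lay above 0 and 2 below, 0 were called, and Dcn alone did not overlap. Neutrophil markers were close to background: all 6 were measured, but Mpo, Ngp and S100a9 exceeded the floor on too few arrays to be tested, so their sum is not read as a difference. Of 4 measured cholangiocyte markers only Cldn4 was above the floor on at least 3 arrays, and all 5 measured endothelial markers were. The cholangiocyte and endothelial sums overlapped. Kupffer cells are a main site of Hmox1 in the liver, and the part of any of these cells in the member values was not tested. In whole liver, fewer cells of a type cannot be told apart from less RNA per cell. Erythroid markers, of which 5 of 8 were measured and Epb42 was dim, summed to 10881 to 13520.3 on the high-fat arrays and 8724 to 12356 on the low-fat arrays. Hba-a1 held the largest part of these sums, at 8890 to 11109 on the high-fat arrays, against 6025 to 9937 on the low-fat arrays. Of 4 tested erythroid markers 2 lay above 0 and 2 below, and 0 were called. Klf1 alone did not overlap and was lower, at 217 to 292 on the high-fat arrays, against 306 to 511 on the low-fat arrays. Pancreatic acinar markers, 7 of 14 measured, summed to 2384 to 12863 on the high-fat arrays and 2321 to 7356 on the low-fat arrays, and array 2 was the highest of each diet. The Gapdh 3′ to 5′ ratio was 1.22, 1.23 and 0.889 on high-fat arrays 1, 2 and 3, against 1.04, 1.07 and 0.824 on low-fat arrays 1, 2 and 3. With both arrays numbered 3 left out, or with this ratio in the model, 0 of the 27 members were called.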

How the data were processed

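The values deposited by the authors were linear intensities of 12488 probe sets on 6 arrays, 3 per diet, grouped by title. Not given in the sources used here: software, background correction and probe summary. The deposited intensities had been scaled as whole arrays, since the mean trimmed by 2% at each end was about 500.4 on each array, and this scaling was kept. A general shift of all transcripts would be hidden by it. The number of arrays limits the precision.

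Probe sets were named by the platform's gene table: 10855 had 1 symbol, 396 several and 1237 none. Of those with 1 symbol, 10839 matched RefSeq's gene table by gene ID, with assembly GRCm38.p6. Intensities below the pooled 30th percentile, 68.9, were raised to that floor before log2. The 8950 probe sets above it on at least 3 of 6 arrays, without the 66 control sets, entered limma 3.58.1 under R 4.3.3, with lmFit and a trended eBayes. The contrast was the high-fat over the low-fat diet, tested two-sided, with Benjamini-Hochberg adjustment over all of them and a threshold of 0.05. Every adjusted p is limma's. Differences are on the floored log2 scale and understate changes near the floor, while means and SDs are of deposited intensities. A gene is represented in counts by its single-symbol probe set of highest mean log2 value. Intensities of different probe sets are not compared as levels. The fit was tested on simulated data in 20 runs, each with 200 of 8950 probe sets changed. It found 43.1% of the simulated log2 changes of 1 and 93.55% of those of 2, and 4.64% of its calls were false.

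The genes named in full were the 12 members of smallest p, the 3 of highest intensity, 7 textbook targets of metal or NRF2 control and members whose probe sets disagreed in sign. Of each related list the 2 of smallest p were named. The members and lists were chosen with earlier results of these data known. Alternatives were other normalizations, floors, filters, variance models, array weights, a replicate block and each array left out.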

Additional observations from a re-analysis of the deposited data

How the results depend on the processing

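The count of 0 called members held under every alternative run, including no filter, an adjusted p of 0.10 and genes averaged over their probe sets, and the median difference ran from 0.029 to 0.076 under them. All called probe sets numbered 74, but 8 without a filter, 20 without the variance trend, 120 at an adjusted p of 0.10, 25 to 74 with each array left out, 14 without both arrays numbered 3 and 26 without both arrays numbered 1. The called related genes numbered 2, but 1 with the floor at the 10th percentile or with all 6 arrays above the floor. The count was 0 without a filter or the variance trend. It was 0 to 1 with each array left out, 0 without both arrays numbered 3 and 1 without both arrays numbered 1. At an adjusted p of 0.10 it was 3, and with the Gapdh ratio as a covariate also 3. Without low-fat array 1, or without both arrays numbered 1, the called gene was Hamp, and Txnip and Slc1a4 were not called. Signs of members near 0 were not stable. With each array left out, log2 differences ran from -1.13 to 0.035 for Mt1, -0.050 to 0.84 for Mt2, -0.56 to 0.067 and -0.14 to 0.50 for the 2 probe sets of Nqo1, -0.22 to 0.046 for Gclm, -0.11 to 0.20 for Gpx1, -0.045 to 0.14 for Gsr, -0.038 to 0.14 for Hmox1, -0.050 to 0.061 for Hmox2, -0.0087 to 0.12 for Fth1 and -0.040 to 0.21 for the dimmer Prdx2 set. Others kept their sign but moved by over 1.5 times: 0.37 to 0.72 for Gclc, 0.20 to 0.45 for Gss, -0.67 to -0.32 for its dimmer set, 0.18 to 0.48 for Nfe2l2, 0.17 to 0.44 for Srxn1, -0.32 to -0.076 for Txn2, 0.077 to 0.17 for Txn1, 0.0082 to 0.13 for Txnrd1, -0.12 to -0.016 for Sod1, -0.21 to -0.048 for Sod2, 0.085 to 0.36 for Sod3, -0.41 to -0.052 for Gpx3, 0.035 to 0.30 for Gpx4, -0.18 to -0.025 for the brighter Prdx2 set, 0.036 to 0.23 for Prdx3, -0.23 to -0.076 for the dimmer Fth1 set and 0.026 to 0.30 for Mgst1. Hmox2 turned to -0.013 under quantile normalization and -0.0042 under a common median, and the dimmer Nqo1 set to -0.058 with the floor at the 10th percentile. Without both arrays numbered 3, Mt2 was -0.20 and Hmox2 -0.011. Without both arrays numbered 1, Mt1 was 0.076, Mgst1 -0.0083, Txnrd1 -0.00028 and Sod1 0.0041. With the Gapdh ratio as a covariate, Nqo1 was 0.11, Fth1 -0.011, Gsr -0.0096, Hmox2 -0.012 and the dimmer Prdx2 set -0.0090. Leaving out both arrays of a number and the covariate were chosen after the data were seen, and the cause of these shifts was not tested.

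Arrays of the same number correlated in their deviations from the diet means at 0.071, 0.11 and 0.31 for numbers 1, 2 and 3. Arrays of unlike number gave -0.21 to 0.11. High-fat arrays 2 and 3 correlated best with the low-fat array of their own number, but high-fat array 1 with low-fat array 2. The number was not taken as a pairing, and whether it marks shared handling was not tested. With the replicate block 103 probe sets, 2 related genes and 0 members were called.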
